A study of Mus musculus with 24 samples.

Results

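The genes described here are those of the ATF4 amino acid response together with the cytosolic tRNA synthetases, measured in newborn mouse liver and hindleg muscle after 4 maternal diets. They were taken from a list of 36 symbols, by a single gene symbol in the array annotation and with 1 probe set per gene, the brightest on average over the 12 arrays of the tissue. Of these, 35 genes were measured among 18193 in each tissue, and Pycr1 had no probe set with that symbol alone. They fall into 13 transcription factors and stress effectors, 7 enzymes of amino acid synthesis, 3 transport genes and 12 tRNA synthetases. The synthetase Mars is annotated as Mars1.

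When amino acids run short, uncharged tRNAs activate the kinase GCN2, which phosphorylates the translation factor eIF2, and the transcription factor ATF4 is then made from an mRNA that is otherwise poorly translated. ATF4 binds sites shared with C/EBP proteins and raises genes for amino acid synthesis and uptake, for charging of tRNAs and for feedback on the response itself. Because ATF4 is controlled largely through translation, its own mRNA need not follow its activity.

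The dams ate 1 of 2 diets from day 1 of pregnancy until birth, and the C57BL/6 pups were sampled on day 0. The LPtau dams had 8% casein with 1% taurine in their drinking water, the LP dams 8% casein, the NPtau dams 20% casein with 1% taurine in water, and the NP dams 20% casein. Each diet gave 3 arrays of liver and 3 of hindleg muscle, 24 in all, of RNA from whole tissue. Per the labels these are biological replicates, with no word on how many dams or litters they represent. The p-values therefore describe only the spread among these arrays.

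All values are deposited log2 expression values per probe set. A difference of 1 is a 2-fold change. Liver and muscle were normalized separately, so levels were compared neither between the tissues nor between genes. A call means an adjusted p under 0.05 in limma, by Benjamini-Hochberg over 18193 genes. In a whole tissue, fewer cells of a type and less RNA per cell cannot be told apart. In the NP samples all 8 measured hepatocyte markers lay above the array median in liver, and all 10 skeletal muscle markers did so in muscle. A pair of muscle arrays stood apart from the rest, LP replicate 1 with a median correlation of 0.957 with the other muscle arrays and LPtau replicate 1 with 0.966, and values without each are given where they move a result. By Xist against Y-linked genes, 1 LPtau, 2 LP, 2 NPtau and 1 NP pup of each tissue were female.

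The regulatory sequence of these genes is shown first, because a shared site is what defines many of them as ATF4 targets. The RefSeq promoter windows (build GRCm38.p6, from 250 bases before to 50 bases after the start of the gene) held an entry for 30 of the 36 listed genes. The other listed genes, Eif4ebp1, Slc7a5, Nars, Wars, Cars and Lars, were not analysed here for sequence. The motif TGATGNAA was searched on both strands, as the C/EBP-ATF composite site is usually written. It was found in 14 of the 30 genes, or 46.7%, against 4.51% of all 27025 genes with a window. The stricter TGATGCAA, which is 1 case of that motif, was found in 11 of the 30, or 36.7%, against 1.03% of all genes. Those 14 genes were Nupr1, Chac1, Trib3, Atf3, Herpud1, Vldlr, Asns, Pycr1, Slc7a11, Aars, Gars, Tars, Yars and Iars. A match describes the letters in the window and is not a measured binding site.

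Below are 4 windows, chosen after the values were seen, for genes on which the results turn. They run 5′ to 3′ on the strand of the gene, with the match in capitals. Asns (chr6:7693160-7693459, minus strand) has the match 23 bases before its start, Yars (chr4:129189653-129189952, plus strand) 3 bases after it, and Nupr1 (chr7:126625421-126625720, minus strand) 110 bases before it, in the reverse orientation. Mthfd2 (chr6:83317555-83317854, minus strand) has no match in this window.
Asns: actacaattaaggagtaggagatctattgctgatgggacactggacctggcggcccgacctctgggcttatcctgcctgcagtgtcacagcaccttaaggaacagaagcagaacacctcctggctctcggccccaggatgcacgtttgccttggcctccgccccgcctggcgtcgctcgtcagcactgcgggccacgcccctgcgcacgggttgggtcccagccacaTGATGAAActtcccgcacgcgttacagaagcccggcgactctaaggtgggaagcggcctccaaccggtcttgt
Yars: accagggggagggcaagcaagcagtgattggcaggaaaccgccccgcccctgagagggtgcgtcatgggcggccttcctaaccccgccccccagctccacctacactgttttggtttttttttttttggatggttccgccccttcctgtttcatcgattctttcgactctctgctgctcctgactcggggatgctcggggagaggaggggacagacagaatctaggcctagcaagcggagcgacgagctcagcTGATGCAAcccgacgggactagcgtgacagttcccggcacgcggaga
Nupr1: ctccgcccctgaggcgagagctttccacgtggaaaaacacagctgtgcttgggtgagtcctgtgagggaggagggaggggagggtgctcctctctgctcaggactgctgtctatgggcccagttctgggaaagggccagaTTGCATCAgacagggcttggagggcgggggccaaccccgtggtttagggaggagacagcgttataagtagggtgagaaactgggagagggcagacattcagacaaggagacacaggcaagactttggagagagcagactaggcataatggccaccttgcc
Mthfd2: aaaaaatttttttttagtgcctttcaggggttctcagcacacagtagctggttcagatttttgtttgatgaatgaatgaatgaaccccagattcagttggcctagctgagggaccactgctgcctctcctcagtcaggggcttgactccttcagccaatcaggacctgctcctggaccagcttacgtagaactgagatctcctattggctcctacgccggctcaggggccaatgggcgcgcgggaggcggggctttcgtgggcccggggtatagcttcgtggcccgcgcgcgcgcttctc

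Low protein without taurine left the stress and amino acid genes of newborn liver largely without calls. The only one called was Nupr1, which encodes a small stress-induced chromatin-associated protein, and it fell. Asns, the asparagine synthetase gene and a standard readout of ATF4, differed by −0.01 (LP minus NP, SE 0.124, 95% interval −0.28 to 0.26), and Atf4 itself by −0.23 (SE 0.22). The 3 probe sets of Atf4 did not agree, running from −1.125 to 0.67, and 2 of them were negative. In all, 1 of 35 genes was called in liver LP minus NP, against 2.34% of all genes tested. At an unadjusted p under 0.05 there were 3 of 35, or 8.57%, against 22.7% of all genes. That count depended on single arrays. It was 8 without NPtau replicate 2 (22.9% against 25.1% of all genes), 7 without LPtau replicate 3 (20% against 22.4%), 6 without NP replicate 2 (17.1% against 21%) and 5 without LPtau replicate 1 or LPtau replicate 2 (14.3% against 21.1%). It fell to 2 without LP replicate 2 or LP replicate 3 (5.71% against 15.3%) and without NP replicate 1 (5.71% against 15.6%). The LP and NP values did not overlap for 6 of 35, against 29.2% of all genes. Of the 35 differences 27 were negative, with a median of −0.15, where 41.5% of all genes were negative and their median was 0.05.

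**Figure D1:**
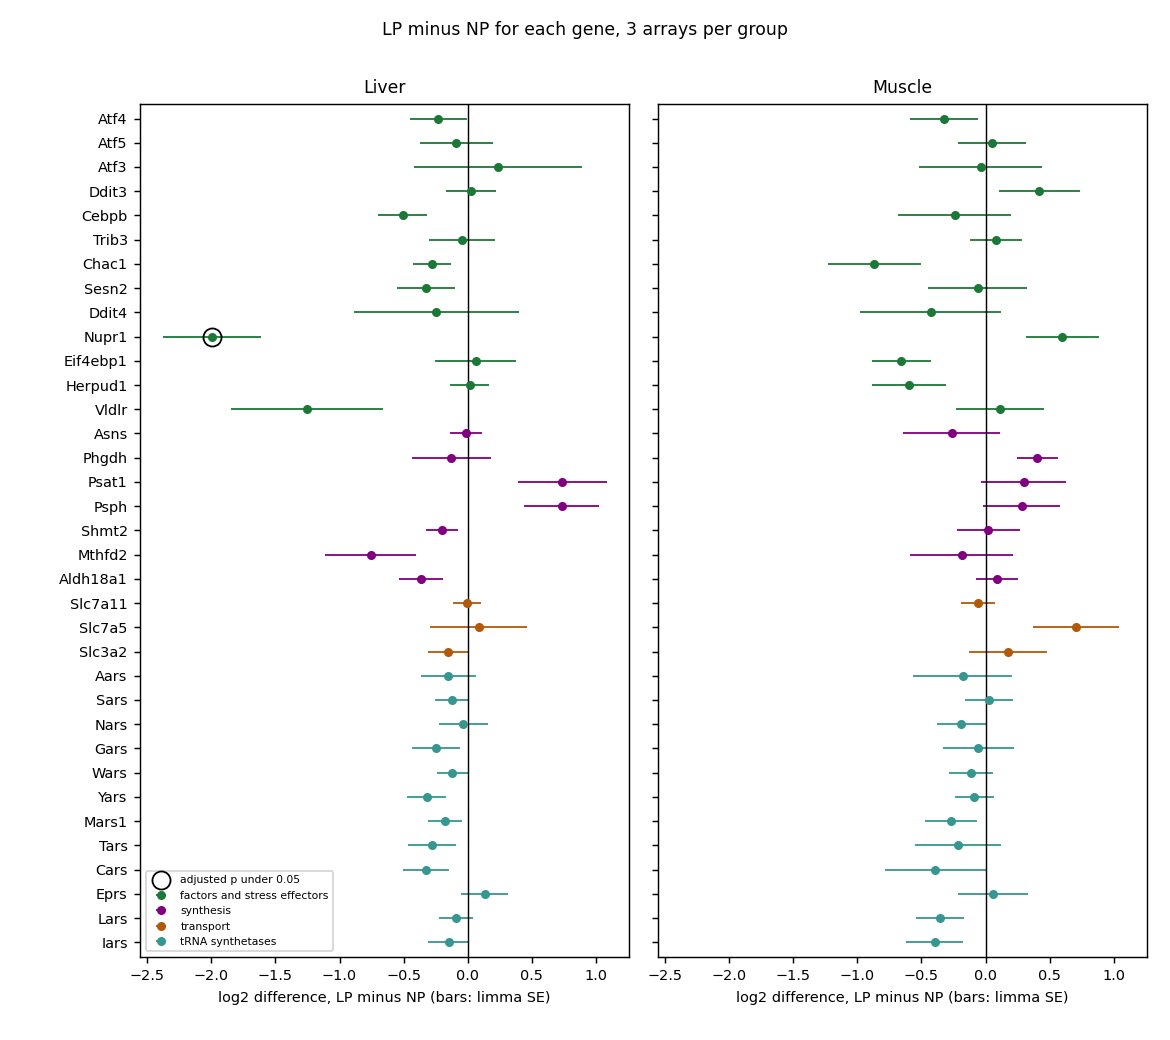
Log2 difference, LP minus NP, for each of the 35 genes (points, bars are limma SE, 3 arrays per group) in liver and in muscle, coloured by role. The circled Nupr1 at −2.00 in liver is the only called gene, and the synthetases lie between −0.32 and 0.13 in liver and between −0.40 and 0.06 in muscle.

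Among the transcription factors and stress effectors, Nupr1 had log2 values of 4.92, 5.07 and 5.42 in LP livers and of 8.05, 6.29 and 7.06 in NP livers. In the same units it had 5.89, 5.96 and 6.59 in LPtau livers and 6.11, 6.79 and 6.87 in NPtau livers. The 3 LP livers were thus below all 9 other livers. The difference, LP minus NP, was −2.00 (SE 0.382, adjusted p = 0.0301 in limma), a level 3.99-fold lower, and both probe sets of the gene had this sign. The call was lost on leaving out LP replicate 2 (−1.97, adjusted p = 0.116), LP replicate 3 (−2.14, 0.0812), NP replicate 1 (−1.54, 0.0785) or NP replicate 3 (−2.03, 0.0945), while the sign stayed.

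Cebpb, which encodes C/EBPβ, a partner of ATF4 at composite sites, had 9.92, 10.09 and 9.89 in LP livers and 10.66, 10.47 and 10.29 in NP livers. These groups did not overlap, but the difference of −0.51 (SE 0.191, adjusted p = 0.155) was not called. Vldlr, a lipoprotein receptor gene induced by ATF4 under stress, had 7.00, 6.25 and 6.46 in LP livers and 8.14, 8.34 and 6.99 in NP livers. The ranges overlapped narrowly, and the difference of −1.25 (SE 0.59, adjusted p = 0.235) was not called. All 6 probe sets of Vldlr were negative, from −1.25 to −0.06. The other stress genes lay between −0.33 for Sesn2 and 0.23 for Atf3. Ddit3, which encodes CHOP, was at 0.02, and Trib3, a pseudokinase that feeds back on ATF4, was at −0.05.

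The enzymes of amino acid synthesis split in liver. Psph, the phosphatase of the last step of serine synthesis, had 8.88, 9.36 and 9.81 in LP livers and 8.88, 8.23 and 8.75 in NP livers, a difference of 0.73 (SE 0.29, unadjusted p = 0.0282, adjusted p = 0.173). Psat1, the aminotransferase of the step before, was at 0.74 (SE 0.347, adjusted p = 0.235), with no overlap between LP and NP. The other probe set of Psat1 was at 0.20. Phgdh, the first enzyme of that pathway, was at −0.13 (SE 0.308). Of its 4 probe sets 3 had that sign, over a range of −0.27 to 0.05. LP replicate 1 was low for Phgdh, at 9.2 against 10.1 in both other LP livers. The sign of Phgdh was thus not settled, and none of the 3 serine enzymes was called.

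Mthfd2, a mitochondrial enzyme of folate one-carbon metabolism, had 7.95, 7.26 and 6.53 in LP livers and 8.09, 7.53 and 8.39 in NP livers (difference −0.76, SE 0.357, adjusted p = 0.235). Aldh18a1, which makes the precursor of proline, had 8.67, 8.38 and 8.67 in LP livers and 8.84, 8.91 and 9.06 in NP livers (difference −0.36, SE 0.171, adjusted p = 0.233). Aldh18a1 and Shmt2, the mitochondrial serine hydroxymethyltransferase at −0.20, were lower in every LP liver than in any NP liver without being called. Those values are of the probe sets used. All 5 probe sets of Aldh18a1 were negative, from −0.36 to −0.03, as were 3 of 4 of Shmt2, from −0.20 to 0.02.

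**Figure D2:**
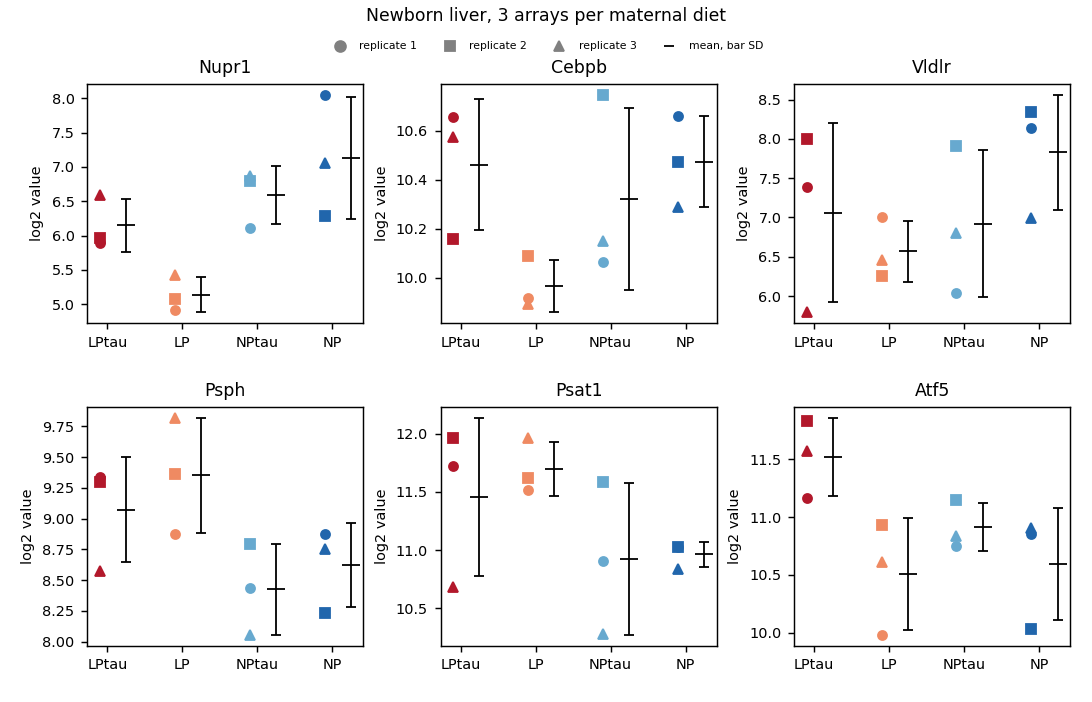
Log2 values of 6 genes in each of the 12 livers by maternal diet (points, with the replicate number by shape; black marks are the mean and SD, n = 3). The Nupr1 values of LP livers, 4.92 to 5.42, lie below those of every other diet, while Atf5 reads 11.16 to 11.83 in LPtau livers and 9.98 to 10.93 in LP livers.

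The transport genes were close to NP. Slc3a2, the heavy chain that carries both light chains below to the membrane, had 9.84, 10.01 and 10.15 in LP livers and 10.34, 9.95 and 10.15 in NP livers. Slc7a5, the light chain of the large neutral amino acid transporter, had 8.06, 9.11 and 9.22 in LP livers and 8.93, 8.34 and 8.87 in NP livers. Slc7a11, the cystine importer, had 4.17, 4.23 and 4.18 in LP livers and 4.32, 4.04 and 4.23 in NP livers. Each of these genes overlapped between LP and NP, with differences of −0.15 (SE 0.159), 0.08 (SE 0.376) and 0.00 (SE 0.11) in the order given. Slc7a11 was dim in liver, with a mean level at percentile 12.1 of all genes. Its 2 probe sets differed in sign, at −0.004 and 0.12.

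Of the 12 tRNA synthetases, which join each amino acid to its tRNA, 11 had a negative difference in liver and 0 were called in limma, with 0 at an unadjusted p under 0.05. Their median was −0.15. Yars had 8.12, 8.38 and 8.44 in LP livers and 8.78, 8.43 and 8.68 in NP livers (difference −0.32, SE 0.154, adjusted p = 0.243). Cars had 7.12, 7.27 and 7.40 in LP livers and 7.80, 7.34 and 7.64 in NP livers (difference −0.32, SE 0.181, adjusted p = 0.306). The other probe set of Cars had the opposite sign (0.24). Tars had 9.48, 9.60 and 9.45 in LP livers and 9.92, 9.58 and 9.87 in NP livers (difference −0.28, SE 0.186, adjusted p = 0.387). These are the synthetases with the smallest p, and the LP and NP values of each overlap. LP replicate 1 had the lowest value of all 12 livers for 15 of 35 genes, 6 of them synthetases, where 9.10% of all genes had their lowest value in that array. Without it the median of the 35 differences was −0.04, and it was −0.08 without NP replicate 1 and −0.25 without NP replicate 2.

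Of the related genes outside the list, 6 were called in liver LP minus NP, where 1.11% of all genes were called higher and 1.23% lower. Among other enzymes of serine, glycine and proline metabolism 9 of 11 had a positive difference, as had 58.5% of all genes (median 0.61, against 0.05 for all genes). In this list 3 were called higher in LP livers: Shmt1, the cytosolic serine hydroxymethyltransferase (1.49, SE 0.241, adjusted p = 0.0175), Gldc of the glycine cleavage system (1.69, SE 0.279, 0.0182) and Prodh, which begins proline breakdown (1.20, SE 0.191, 0.0172). Of 24 other ATF4 targets, 1 was called higher and 0 lower. That gene was Cth, cystathionine gamma-lyase (1.82, SE 0.375, adjusted p = 0.0366), and the next by p was the glutamine transporter gene Slc38a2 (−0.86, adjusted p = 0.0757). Among 16 mitochondrial tRNA synthetases Fars2 fell (−1.02, SE 0.125, adjusted p = 0.00785) and Iars2 rose (0.52, SE 0.112, adjusted p = 0.0422). With limma 0 genes were called in the other lists. At an unadjusted p under 0.05, which 22.7% of all genes reached, there were 3 of 15 kinases and factors of the eIF2 pathway, led by Eif2b2 (0.32) and the ER stress kinase gene Eif2ak3 (−0.95). Of 20 unfolded protein response genes there were 7, led by Pdia6 (0.39) and Dnajc3 (0.52), and of 10 other cytosolic synthetases and partners 2, Farsb (−0.36) and Hars (−0.49). The shares in the eIF2 and synthetase lists are thus near that of all genes.

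Other cell type markers also differed in the livers. The mean of 8 measured B lymphoid markers, relative to NP, was −1.29 to −0.899 in LP livers and −0.0948 to 0.0635 in NP livers, and 4 of the 8 were called. Endothelial markers were at −0.548 to −0.325 in LP livers and −0.12 to 0.112 in NP livers, and 3 of 7 were called. Markers of cell division were at −0.597 to −0.567 in LP livers and −0.224 to 0.122 in NP livers, with 0 called in limma. Fat markers were at −0.741 to −0.348 in LP livers and −0.0659 to 0.0357 in NP livers, and 1 of 4 was called. Fibroblast and matrix markers were at −0.723 to −0.157 in LP livers and −0.101 to 0.0515 in NP livers. None of these lists overlapped between the diets. The hepatocyte list stayed at −0.0294 to −0.00824 in LP livers, against −0.131 to 0.114 in NP livers. The part of other cells in the Nupr1 difference was not tested.

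Taurine added to low protein gave 0 called genes of the 35 in liver (LPtau minus LP, limma), against 0.066% of all genes. At an unadjusted p under 0.05 there were 6 of 35, all higher in LPtau livers, or 17.1% against 5.16% of all genes. They were Atf5, Lars, Nupr1, Cebpb, Gars and Tars. Of the 35 differences 30 were positive (48.4% of all genes), with a median of 0.23 against −0.01 for all genes. All 12 synthetases were positive, from 0.02 for Iars to 0.43 for Gars. That sign was shared by 1 of 2 probe sets for Cars and by 3 of 4 for Eprs. The values did not overlap, LPtau above LP, for 9 genes, where 6.77% of all genes did so. The count of 6 became 3 without LP replicate 1 (8.57% against 10.2% of all genes) or without LP replicate 2 (8.57% against 3.61%). It became 10 without NPtau replicate 2 (28.6% against 6.2%). Without LP replicate 1 the median of the 35 differences was 0.15. With 3 arrays against 3, an exact test of a single gene cannot give a two-sided p below 0.1.

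Atf5, an ATF4 relative and target, had 11.16, 11.83 and 11.57 in LPtau livers and 9.98, 10.93 and 10.61 in LP livers. In NPtau livers it had 10.75, 11.15 and 10.84, and in NP livers 10.85, 10.04 and 10.90. The LPtau livers were the highest of the 12, and the difference, LPtau minus LP, was 1.01 (SE 0.284, adjusted p = 0.32). Lars, the leucyl synthetase gene, had 9.52, 9.68 and 9.48 in LPtau livers and 9.01, 9.19 and 9.27 in LP livers (difference 0.40, SE 0.129, adjusted p = 0.425). Its LPtau values were also above all other livers. The LPtau livers also had higher fibroblast and matrix markers, a mean of 0.172 to 1.03 relative to NP over 7 genes, against −0.723 to −0.157 in LP livers. Endothelial markers (−0.127 to 0.161 in LPtau livers, −0.548 to −0.325 in LP livers) and B lymphoid markers (−0.799 to 0.0694 in LPtau livers, −1.29 to −0.899 in LP livers) were likewise higher without overlap. The hepatocyte markers were at 0.0615 to 0.0694 in LPtau livers and −0.0294 to −0.00824 in LP livers. These did not overlap either, but both lay within the range of NP livers, −0.131 to 0.114. The median LPtau minus LP difference of that list was 0.01. The part of those cells in these differences was not tested. Of the genes outside the list, Fars2 was called higher (0.87, adjusted p = 0.0498), the only one of the related lists. There, 7 of 10 other cytosolic synthetases and partners were positive (median 0.03), and 16 of 24 other ATF4 targets (median 0.225), where 48.4% of all genes were positive.

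In liver NPtau minus NP, 0 of 35 genes were called in limma and 0 had an unadjusted p under 0.05, against 0% and 2.75% of all genes. Herpud1, an ER stress protein gene (−0.24, adjusted p = 0.995), and Vldlr (−0.91, 0.995) had the smallest p. In LPtau minus NP, 0 of 35 were called, against 0% of all genes, and Atf5 (0.92, adjusted p = 0.602) and Nupr1 (−0.98, 0.711) came first of 3 at an unadjusted p under 0.05 (6.77% of all genes). In LPtau minus NPtau, 0 of 35 were called, against 0% of all genes, and Herpud1 (0.48, adjusted p = 0.999) and Lars (0.38, 0.999) came first of 3 at that unadjusted p (4.74% of all genes). The interaction (the low protein difference with taurine less that without it) also called 0 of 35, against 0% of all genes, with Nupr1 (1.55, adjusted p = 0.558) and Lars (0.47, 0.57) first of 3 at an unadjusted p under 0.05, where 8.46% of all genes stood. These small counts also moved with single arrays. For LPtau minus NP the count was 1 without LPtau replicate 1 or 2 (2.86% against 4.42% and 3.84% of all genes). It was 6 without LPtau replicate 3 (17.1% against 8.96%). For LPtau minus NPtau it was 1 without LPtau replicate 2 (2.86% against 3.4% of all genes) and 7 without NPtau replicate 2 (20% against 5.2%). It was 5 without LPtau replicate 3, LP replicate 1 or NP replicate 2 (14.3% against 6.57%, 5.96% and 4.38%). For the interaction it was 1 without LP replicate 1 (2.86% against 15.3% of all genes) and 7 without NP replicate 2 (20% against 8.9%). For NPtau minus NP it was 2 without NPtau replicate 2 (5.71% against 1.68%) and 1 without NP replicate 2 (2.86% against 3.09%). These comparisons share arrays with each other.

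**Figure D3:**
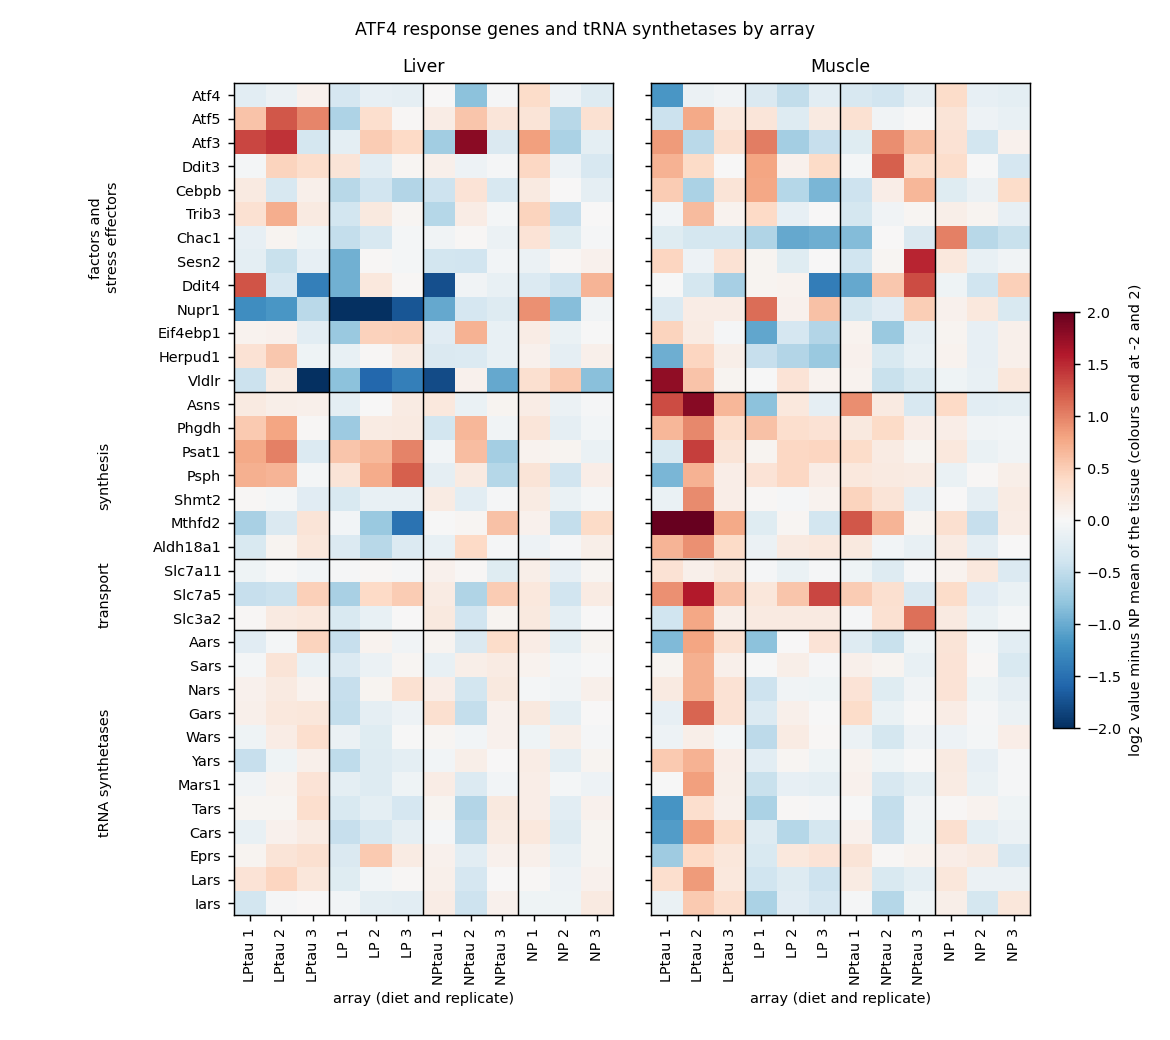
Log2 value minus the NP mean of the tissue for 35 genes (rows, by role) in each of the 12 arrays per tissue (columns, by diet and replicate); colours end at −2 and 2. In muscle the column LPtau 2 is the highest of 12 for 22 genes, and in liver Nupr1 is lowest in the 3 LP columns.

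In muscle, low protein alone called 0 of the 35 genes (LP minus NP, limma), against 0.126% of all genes. At an unadjusted p under 0.05 there were 3, or 8.57%, against 10.8% of all genes: Phgdh higher, and Eif4ebp1 and Chac1 lower. Without LPtau replicate 2 there were 6, or 17.1%, against 10.1% of all genes. There were 2 without LP replicate 1 (5.71% against 11.8%) and 4 without LPtau replicate 1 (11.4% against 14%). The LP and NP values did not overlap for 9 of 35 genes, against 19.6% of all genes. Of the 35 differences 21 were negative (52.4% of all genes), with a median of −0.06 against −0.01 for all genes. That median was −0.02 without LP replicate 1, 0.003 without NP replicate 1, −0.13 without NP replicate 2 and −0.10 without NP replicate 3.

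Eif4ebp1, a repressor of cap-dependent translation and an ATF4 target, had 10.34, 11.04 and 10.79 in LP muscles and 11.44, 11.22 and 11.49 in NP muscles. Every LP muscle was lower, and the difference of −0.66 (SE 0.231, adjusted p = 0.312) was not called. Chac1, a glutathione-degrading enzyme gene, had 5.32, 4.89 and 4.94 in LP muscles and 6.92, 5.36 and 5.46 in NP muscles (difference −0.87, SE 0.361, adjusted p = 0.417). Its NP group was spread by replicate 1. Nupr1 had 9.12, 8.10 and 8.60 in LP muscles and 8.10, 8.22 and 7.71 in NP muscles (difference 0.60, SE 0.283, adjusted p = 0.491). LPtau muscles had 7.73, 8.15 and 8.16 and NPtau muscles 7.66, 7.79 and 8.50 for Nupr1, so that LP replicates 1 and 3 were the highest of the 12. Atf4 was at −0.33 (SE 0.265), and Trib3 at 0.08 (SE 0.202). The 3 probe sets of Atf4 ran from −0.33 to 0.13, and 2 of them were negative. The remaining factors and effectors lay between −0.60 for Herpud1 and 0.42 for Ddit3. For Vldlr (0.11) only 1 of 6 probe sets had the sign of the one used.

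Phgdh had 9.39, 9.14 and 9.10 in LP muscles and 8.94, 8.74 and 8.75 in NP muscles (difference 0.40, SE 0.158, adjusted p = 0.372). Psph had 6.94, 7.09 and 6.83 in LP muscles and 6.54, 6.70 and 6.79 in NP muscles (difference 0.28, SE 0.303, adjusted p = 0.84). Psat1 had 8.91, 9.27 and 9.28 in LP muscles and 9.06, 8.72 and 8.78 in NP muscles (difference 0.30, SE 0.331, adjusted p = 0.846). The 3 serine enzymes were thus all higher on average in LP muscle, Phgdh and Psph without overlap, and none was called. Asns (−0.26, SE 0.38) and Mthfd2 (−0.19, SE 0.403) had negative differences.

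Slc7a5 had 8.10, 8.43 and 9.21 in LP muscles and 8.24, 7.65 and 7.75 in NP muscles (difference 0.70, SE 0.334, adjusted p = 0.493). Slc3a2 had 9.40, 9.40 and 9.41 in LP muscles and 9.40, 9.09 and 9.18 in NP muscles (difference 0.18, SE 0.304). Slc7a11 had 3.48, 3.37 and 3.48 in LP muscles and 3.56, 3.71 and 3.23 in NP muscles (difference −0.06, SE 0.133). None of the transport genes was called, and the Slc7a11 values lie near the bottom of the scale, whose lowest deposited value is 2.75.

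Of the 12 synthetases 10 were negative in LP muscle, with a median of −0.18, and 0 were called in limma or had an unadjusted p under 0.05. Lars had 8.42, 8.55 and 8.41 in LP muscles and 9.04, 8.70 and 8.70 in NP muscles (difference −0.35, SE 0.185, adjusted p = 0.559). Iars had 8.89, 9.30 and 9.19 in LP muscles and 9.65, 9.18 and 9.75 in NP muscles (difference −0.40, SE 0.22, adjusted p = 0.592). Mars1 had 8.56, 8.85 and 8.82 in LP muscles and 9.17, 8.88 and 8.99 in NP muscles (difference −0.27, SE 0.203, adjusted p = 0.731). Lars and Mars1 were lower in every LP muscle than in any NP muscle. LP replicate 1 held the lowest value of the 12 muscles for 6 synthetases, where 14.9% of all genes were lowest there. Among the related lists 0 genes were called in muscle. The smallest p were those of Aimp2, a scaffold of the synthetase complex (−0.65, adjusted p = 0.229), and Vars (0.34), of the mitochondrial synthetase genes Wars2 (−0.32) and Cars2 (−0.29), of the ATF4 targets Gadd45a (−1.37) and Ndrg1 (0.63), of Srr (−0.42) and Aldh4a1 (−0.52), of Eif2b3 (0.40) and Impact (0.25), and of Pdia6 (−0.24) and Dnajc3 (0.26).

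In muscle, taurine added to low protein called 0 of the 35 genes (LPtau minus LP, limma), against 0.022% of all genes. At an unadjusted p under 0.05 there were 9, all higher in LPtau muscle, or 25.7% against 6.05% of all genes. They were Mthfd2, Asns and Aldh18a1 of synthesis, the synthetases Lars, Yars, Nars, Iars and Mars1, and Eif4ebp1. Together with Chac1 and Slc7a11 these make the 11 genes whose values did not overlap, or 31.4%, where 9.03% of all genes did so with LPtau higher. Of the 35 differences 28 were positive (53% of all genes). Their median was 0.27, against 0.02 for all genes, and 10 of 12 synthetases were positive. Outside the list, 4 of 10 other cytosolic synthetases and partners were positive (median −0.11). Of 24 other ATF4 targets 15 were positive (median 0.14).

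**Figure D4:**
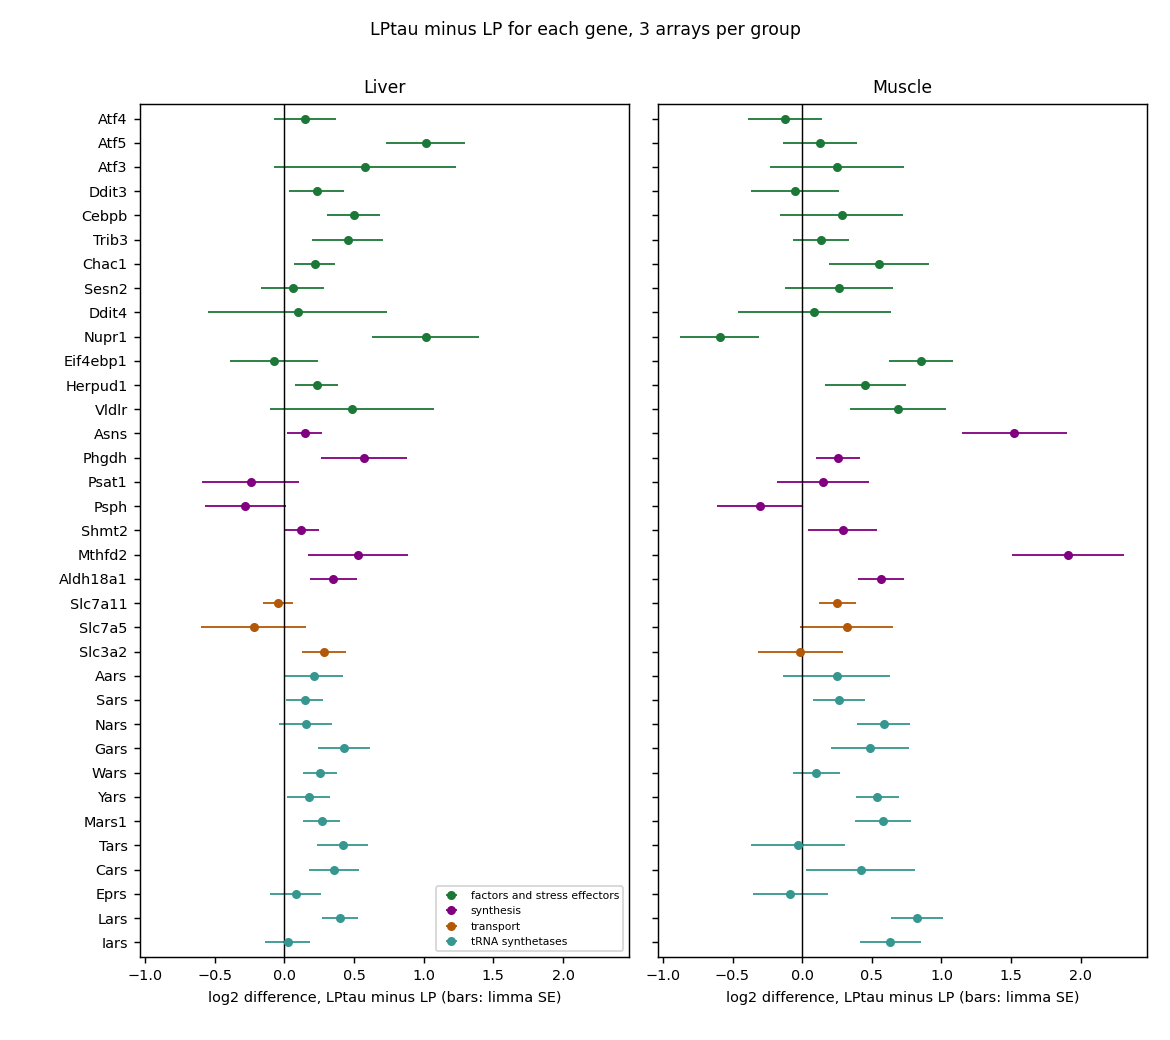
Log2 difference, LPtau minus LP, for each of the 35 genes (points, bars are limma SE, 3 arrays per group) in liver and in muscle, coloured by role. No gene is called; Mthfd2 at 1.91 and Asns at 1.52 lie farthest to the right in muscle, where liver has 0.53 and 0.14.

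Mthfd2 had 9.10, 9.28 and 7.73 in LPtau muscles and 6.74, 7.02 and 6.62 in LP muscles. In NPtau muscles it had 8.22, 7.66 and 7.03, and in NP muscles 7.30, 6.52 and 7.12. The difference, LPtau minus LP, was 1.91 (SE 0.403, 95% interval 1.02 to 2.80, adjusted p = 0.14), a level 3.76-fold higher. LPtau replicates 1 and 2 were above all other muscles, and replicate 3 was below NPtau replicate 1. Lars had 9.15, 9.67 and 9.03 in LPtau muscles, against the LP values given above, with a difference of 0.82 (SE 0.185, adjusted p = 0.147) and a level 1.77-fold higher. NPtau muscles had 8.98, 8.51 and 8.61 for Lars, so that 2 LPtau muscles exceeded all others and the third, at 9.03, lay just below the top NP muscle, at 9.04.

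Asns, singled out after its values were seen, had 10.98, 11.51 and 10.34 in LPtau muscles and 8.87, 9.90 and 9.50 in LP muscles. In NPtau muscles it had 10.62, 9.86 and 9.36, and in NP muscles 10.08, 9.48 and 9.49. Its difference, LPtau minus LP, was 1.52 (SE 0.38, adjusted p = 0.162), a level 2.88-fold higher, and both probe sets had this sign. Aldh18a1 had 9.44, 9.67 and 9.14 in LPtau muscles and 8.64, 8.94 and 8.97 in LP muscles (difference 0.57, SE 0.163, adjusted p = 0.209). Yars, whose window is printed above, had 8.29, 8.47 and 7.90 in LPtau muscles and 7.55, 7.81 and 7.69 in LP muscles (difference 0.54, SE 0.153, adjusted p = 0.203). For both, all LPtau muscles lay above all LP muscles.

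**Figure D5:**
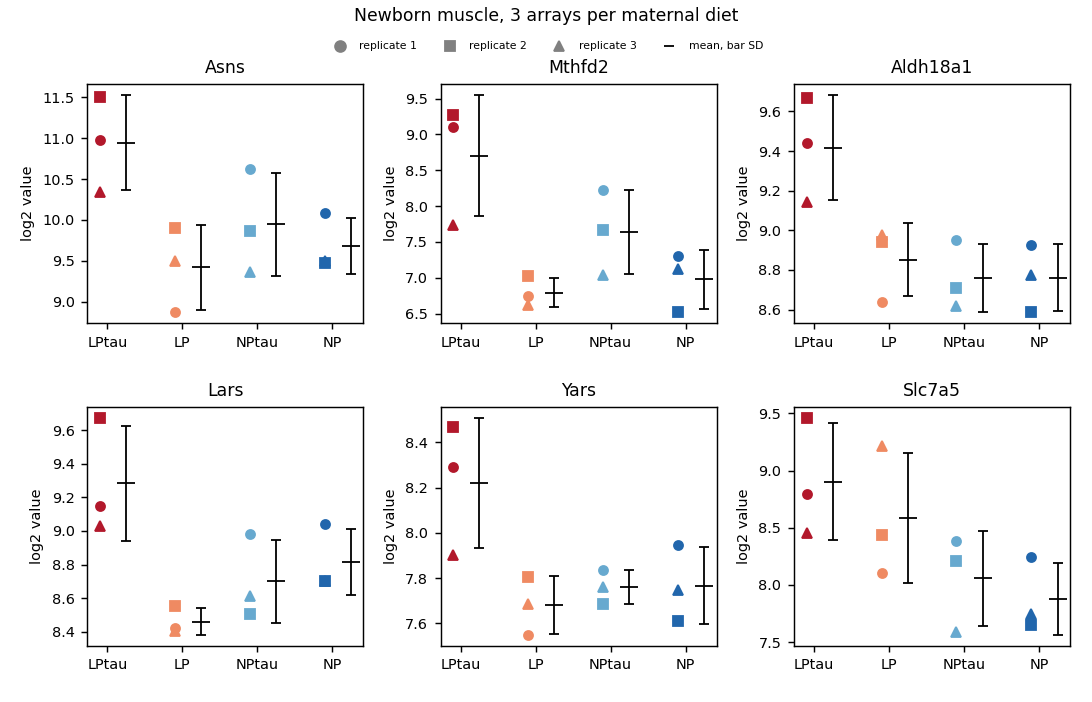
Log2 values of 6 genes in each of the 12 muscles by maternal diet (points, with the replicate number by shape; black marks are the mean and SD, n = 3). For Asns the LPtau muscles lie at 10.34 to 11.51 and the LP muscles at 8.87 to 9.90, and LPtau replicate 2 (square) is the highest point for each gene.

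The transcription factors had smaller differences. Atf4 had 9.54, 10.59 and 10.63 in LPtau muscles and 10.42, 10.22 and 10.49 in LP muscles, a difference of −0.12. Its 3 probe sets ran from −0.18 to 0.26, and 2 of them were negative. Ddit3 was at −0.05, Trib3 at 0.14 and Atf5 at 0.13. Of the serine enzymes, Phgdh was at 0.26, Psat1 at 0.15 and Psph at −0.31. Genes with the TGATGNAA motif in the window had a median difference of 0.45 (11 of 13 positive) and those without it 0.20 (11 of 16 positive). A gap was also seen in muscle LPtau minus NPtau (0.335 with a match, 0.01 without) and in the muscle interaction (0.51 and 0.04), which share the LPtau arrays. It was not shared by all comparisons. In muscle LPtau minus NP the medians were 0.21 with a match and 0.25 without, and in liver LPtau minus LP they were 0.23 with a match and 0.19 without. Mthfd2, with no match, had the highest difference of the 35.

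The 3 LPtau muscles were unlike each other. Replicate 2 held the highest value of the 12 muscles for 22 of 35 genes, among them 11 of 12 synthetases, where 5.28% of all genes were highest there. Replicate 1 held the lowest value for 10 of 35 genes, 4 of them synthetases, where 23.4% of all genes were lowest there. Replicate 1 was high for Asns and Mthfd2 but low for Cars, which had 6.81, 8.73 and 8.30 in LPtau muscles. Tars likewise had 7.74, 9.25 and 9.02. Without replicate 2 the count at an unadjusted p under 0.05 was 6 higher and 1 lower with a median of 0.10, without replicate 1 it was 13 with a median of 0.43, and without replicate 3 it was 11. In these fits 5.96%, 5.61% and 7.36% of all genes, in the same order, were higher at that p. Without LP replicate 1 there were 7 in both directions, or 20% against 12.2% of all genes, with a median of 0.32.

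Cartilage markers varied between the muscle samples. The mean of 6 measured markers relative to NP was 2.22 to 2.89 in LPtau muscles, 3.81, 3.58 and −0.988 in LP muscles, −0.956 to 1.41 in NPtau muscles and −1.16 to 0.914 in NP muscles. The skeletal muscle markers were at −0.351 to 0.0771 in LPtau muscles and −0.698 to −0.15 in LP muscles. Hepatocyte markers were at −0.416 to 1.01 in LPtau muscles and 0.159 to 1.96 in LP muscles. Against NP muscles, at −0.0362 to 0.0634, the LP muscles were lower without overlap for skeletal muscle markers. The same held for endothelial markers (−0.668 to −0.287 in LP muscles, −0.175 to 0.103 in NP muscles), fat markers (−0.786 to −0.634 in LP muscles, −0.221 to 0.391 in NP muscles) and, narrowly, cell division markers (−0.302 to −0.0539 in LP muscles, −0.0532 to 0.0635 in NP muscles). The part of these tissues in the differences was not tested.

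Against the normal protein diets, the same LPtau muscles again gave no call. In LPtau minus NP, 0 of 35 genes were called in limma, against 0% of all genes, and 8 were higher at an unadjusted p under 0.05, or 22.9% against 1.59% of all genes. Mthfd2 (1.72, SE 0.403), Phgdh (0.66, SE 0.158) and Aldh18a1 (0.66, SE 0.163) ranked 4, 5 and 7 of 18193 genes by p, each with an adjusted p of 0.84. Slc7a5 was at 1.02 with no overlap. The count of 8 became 15 without LPtau replicate 1, 5 without LPtau replicate 2 and 5 without NP replicate 2. In both directions together, these fits gave 42.9%, 14.3% and 14.3%, against 1.51%, 6.82% and 1.7% of all genes in the same order. In LPtau minus NPtau, 0 of 35 were called, against 0% of all genes, and 10 were higher at an unadjusted p under 0.05, or 28.6% against 3.05%. Aldh18a1 (0.66, adjusted p = 0.737) and Lars (0.58, 0.737) came first. That count became 4 without LPtau replicate 2 and 5 without NPtau replicate 3. In both directions together, these fits gave 14.3% each, against 8.22% and 2.85% of all genes. Without LPtau replicate 1 there were 13 in both directions, or 37.1% against 1.95% of all genes. In LPtau minus NP 9 of 12 listed synthetases and 1 of 10 other cytosolic synthetases and partners were positive, against 49.5% of all genes. In LPtau minus NPtau these were 10 of 12 and 2 of 10, against 52.5%. Both comparisons share the LPtau arrays with LPtau minus LP.

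In the interaction 0 of 35 were called, against 0% of all genes, and 8 were higher at an unadjusted p under 0.05, or 22.9% against 3.84%. Lars (0.94, SE 0.262, adjusted p = 0.66) and Eif4ebp1 (1.14, SE 0.326, 0.672) came first. The count became 4 without LPtau replicate 2 or NPtau replicate 3, and 3 without LP replicate 1, NPtau replicate 2 or NP replicate 1. In both directions together, the first 2 of these fits gave 14.3% and 11.4%, against 7.53% and 5.26% of all genes. The last 3 gave 8.57% each, against 6.48%, 5.87% and 4.82% of all genes, so near that share. Without LPtau replicate 1 there were 11 in both directions, or 31.4% against 6.74% of all genes. In NPtau minus NP, limma called 0 of 35 and 0 had an unadjusted p under 0.05, against 0% and 0.484% of all genes. Mthfd2 (0.66, SE 0.403) and Ddit3 (0.50, SE 0.315) had the smallest p, each with an adjusted p of 1. The count of 0 became 2 without NPtau replicate 1 (5.71% against 1.58% of all genes). It became 1 without LPtau replicate 3 or NPtau replicate 3 (2.86% against 0.478% and 1.01%).

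By mean level, LPtau was the highest diet for 17 of 35 genes in liver (20.7% of all genes) and for 21 of 35 in muscle (31.6% of all genes). For the synthetases it was highest for 9 of 12 in each tissue. LP was the lowest diet for 23 of 35 genes in liver (29.8% of all genes), among them 11 of 12 synthetases. In muscle LP was lowest for 16 of 35 genes (32% of all genes), among them 7 of 12 synthetases.

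Whether low protein acted differently in the tissues was tested in a fit of all 24 arrays. The muscle minus liver difference of LP minus NP was called for 1 of 35 genes, against 1.97% of all genes. It was Nupr1, at 0.60 in muscle and −2.02 in liver, a difference of 2.62 (SE 0.546, adjusted p = 0.0176). The call was lost without liver LP replicate 2 (adjusted p = 0.0537) and without muscle NP replicate 3 (0.0572). For the other 34 genes the difference between the tissues was not called, and none of them had an unadjusted p under 0.05, against 17.1% of all genes. With 1 array left out 1 of them did so, in the fits without liver LP replicate 1, liver NP replicate 3, muscle LP replicate 1 or muscle NP replicate 2. This fit treats liver and muscle as separate samples, and the labels do not say whether those of 1 diet and number came from the same pup. They matched in sex in 12 of 12 pairs, and their deviations from the group means correlated at 0.0234 to 0.198. With diet and number as a random block the Nupr1 difference was 2.62 (SE 0.518, adjusted p = 0.0106).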

How the data were processed

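Biotin-labelled cRNA from 24 RNA samples was read on Affymetrix mouse arrays, which carry 45101 probe sets. The deposited unit is log2 expression, made by the authors with RMA and with liver and muscle normalized separately, per the labels and the submitters' processing notes. The notes name R 2.7.0 and also MAS5, whose role is not given in the sources used here. Every value column was mapped to a sample (0 columns unmapped). Of the probe sets 34945 had 1 gene symbol in the platform annotation. The brightest probe set of a gene in the tissue was kept, with no filter on low values.

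The 12 arrays of a tissue entered 1 limma fit with 4 diet means (lmFit, contrasts.fit and eBayes, limma 3.58.1, R 4.3.3). The tissue difference used 8 means on 24 arrays, with the probe set brightest over all 24. P-values were adjusted by Benjamini-Hochberg over 18193 genes, with a call under 0.05, and the scripts were tested on simulated data. The genes and lists were chosen with earlier results of these data known. Values per array are given for called genes and otherwise for up to 3 genes per role with the smallest p for LP minus NP, and in other comparisons the 2 genes with the smallest p are named. Other genes named with values were chosen after these were seen.

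The labels number replicates 1 to 3 in each group. Same-numbered arrays of 2 diets correlated at −0.443 to 0.424 in their deviations from the group means, and 11 of 30 pairs exceeded 0.1, so the numbers were not taken to pair samples. Alternatives were the mean over probe sets, cyclic loess, a filter on dim genes, a trended robust spread, only the arrays of the contrast, a replicate block, sex as a covariate and leaving out each array. The number of arrays limits the precision.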

Additional observations from a re-analysis of the deposited data

Results flagged for a closer look

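Nupr1 differed between the tissues in its response to low protein, and this difference itself passed the test. The difference of LP minus NP between muscle and liver was 2.62 on the log2 scale (SE 0.546, adjusted p = 0.0176 in limma on 24 arrays), with 0.60 in muscle and −2.02 in liver. No LP liver overlapped an NP liver, while the LP and NP muscles overlapped.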

How the results depend on the processing

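The liver LP minus NP count of 1 called gene (Nupr1) stayed at 1 with the replicate block, the mean over probe sets, cyclic loess, the trended robust spread and sex as a covariate. It was 0 with only genes above the median level, since Nupr1 lies below that level and was not tested, and 0 with only the arrays of the contrast (Nupr1 −2.00, adjusted p = 0.0672). Leaving out 1 array gave 0 to 1 called genes for liver LP minus NP and 0 to 1 for the muscle minus liver difference, which stayed at 1 in its other alternatives. For the remaining comparisons the count was 0 in every alternative and with any 1 array left out. The numbers were not taken to pair the samples, and the replicate block changed no call among the 35 genes. Over all genes, liver LP minus NP called 425, against 21 to 2013 with 1 array left out and 244 with sex as a covariate. Liver LPtau minus LP called 12, against 0 with cyclic loess, 4 with sex as a covariate, 20 with the mean over probe sets and 0 to 269 with 1 array left out. Muscle LP minus NP called 23, against 2 with the replicate block, 5 with sex as a covariate, 65 with cyclic loess, 38 with the mean over probe sets and 2 to 126 with 1 array left out. Muscle LPtau minus LP called 4, against 0 with the replicate block, 67 with cyclic loess and 0 to 75 with 1 array left out. The muscle minus liver difference called 359, against 119 to 762 with 1 array left out. The cause of these shifts was not tested. Of 8530 values of single genes under alternatives 468 had the opposite sign, 0 of them for a value called in either fit. A call was lost in 7, all for Nupr1, and 41 uncalled values moved by more than the SD between replicates. In muscle LPtau minus LP the adjusted p of Mthfd2 ran from 0.0752 to 0.555 over the alternatives and that of Asns from 0.0938 to 0.555.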
